A study of Danio rerio with 6 samples.

Results

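Messenger RNA of 8 genes that mark segments of the zebrafish embryonic kidney was examined in embryos labelled Trdmt1 knockout and in wild-type controls. The genes were pax2a, cubn, lrp2a, slc20a1a, slc13a3, slc12a1, slc12a3 and clcnk, chosen by symbol, and each matched 1 of the 31624 genes listed. All 8 had enough reads to be tested, among 20555 genes in all. The series compared 3 knockout libraries with 3 control libraries of zebrafish (Danio rerio) embryos, with the stated aim of examining the function of Trdmt1, an RNA methyltransferase of transfer RNAs also known as Dnmt2. The genotype labels read Trdmt1 knockout and wildtype, and name no further allele, treatment, strain or embryo age. Whether embryos of a group's libraries were from different clutches is not in the labels, and p-values therefore cover the spread between these libraries and no more.

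The pronephros is the first working kidney of the fish embryo. It has a pair of tubules that join a single glomerulus, where podocytes filter blood, and each tubule is divided into proximal and distal segments with different transporters. Proximal segments take back proteins, phosphate and organic acids from the filtrate, and distal segments take back salt, in much the same order as in the mammalian nephron. The transcription factor Pax2a acts early, when the tubule forms from intermediate mesoderm, and is also used at the midbrain-hindbrain boundary, in the optic stalk and in the ear. Whole embryos were sequenced, so fewer cells of a type and less RNA per cell cannot be told apart, and several of the 8 genes are also used outside the kidney.

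Libraries held 12877132 to 18721589 counted reads. The 8 genes had between 23 and 1226 reads in a library. Levels are given in RPKM, reads per kilobase of exonic length after scaling to library depth, as the authors deposited them. The targeted transcript, trdmt1, stood at 3.1, 2.60 and 1.08 RPKM across controls 1 to 3 and at 1.59, 1.4 and 1.07 RPKM across knockouts 1 to 3. The groups overlapped, so the transcript does not check the labels. Knockout 3 stood apart from the other libraries. Its rod opsin gene rho was at 292 RPKM against 4.25 to 15.3 RPKM elsewhere, its pancreatic trypsin gene try at 56.8 against 4.31 to 7.36 RPKM, and its hatching gland protease gene he1a at 15.01 against 91.1 to 198 RPKM, genes named after their values were seen. A near match was found between knockouts 1 and 2. The chi-square of their counts over genes, divided by its degrees of freedom, was 1.58, where the remaining pairs of libraries gave 11.7 to 75.6. The lowest of these, 11.7 and 11.9, were of control 3 with knockouts 1 and 2. Pairs of controls gave more, 18.7 to 22.6.

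None of the 8 genes passed the test between knockout and control (quasi-likelihood test of edgeR over all 20555 genes, called where the Benjamini-Hochberg adjusted p was under 0.05). The test called 0.117% of genes, 0.102% as higher and 0.0146% as lower in the knockout. At an unadjusted p under 0.05, 2 of the 8 were higher, slc20a1a and slc12a3, against 4.06% of all genes tested that were higher at this level. These were also the 2 genes in which every knockout library lay above every control. Such separation with the knockouts higher, counted in normalized reads (TMM), was found in 7.62% of all genes tested. The highest of the 6 libraries was knockout 3 in 7 of the 8 genes, against 30.1% of all genes tested. It lay at least 1.5-fold above the next library in 4 of the 8, cubn, slc13a3, slc12a1 and slc12a3, against 7% of all genes tested. All 8 log2 fold changes were above 0, with a median of 0.56, where 49.5% of all genes tested were above 0 and their median was -0.00385. Without knockout 3, 6 of the 8 were above 0 and the median was 0.20. The 8 genes were chosen with earlier results of these data known, so their shares beside those of all genes are a description. All fits without knockout 3 compare only knockouts 1 and 2, the near match, with the controls. Their standard errors may therefore understate the spread between knockouts. The fit over all 6 libraries also holds this near match, and whether knockouts 1 and 2 are independent is not in the labels. Its p-values, the permutation tests and the counts of separated groups treat knockouts 1 and 2 as independent libraries, and may understate that spread too.

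**Figure D1:**
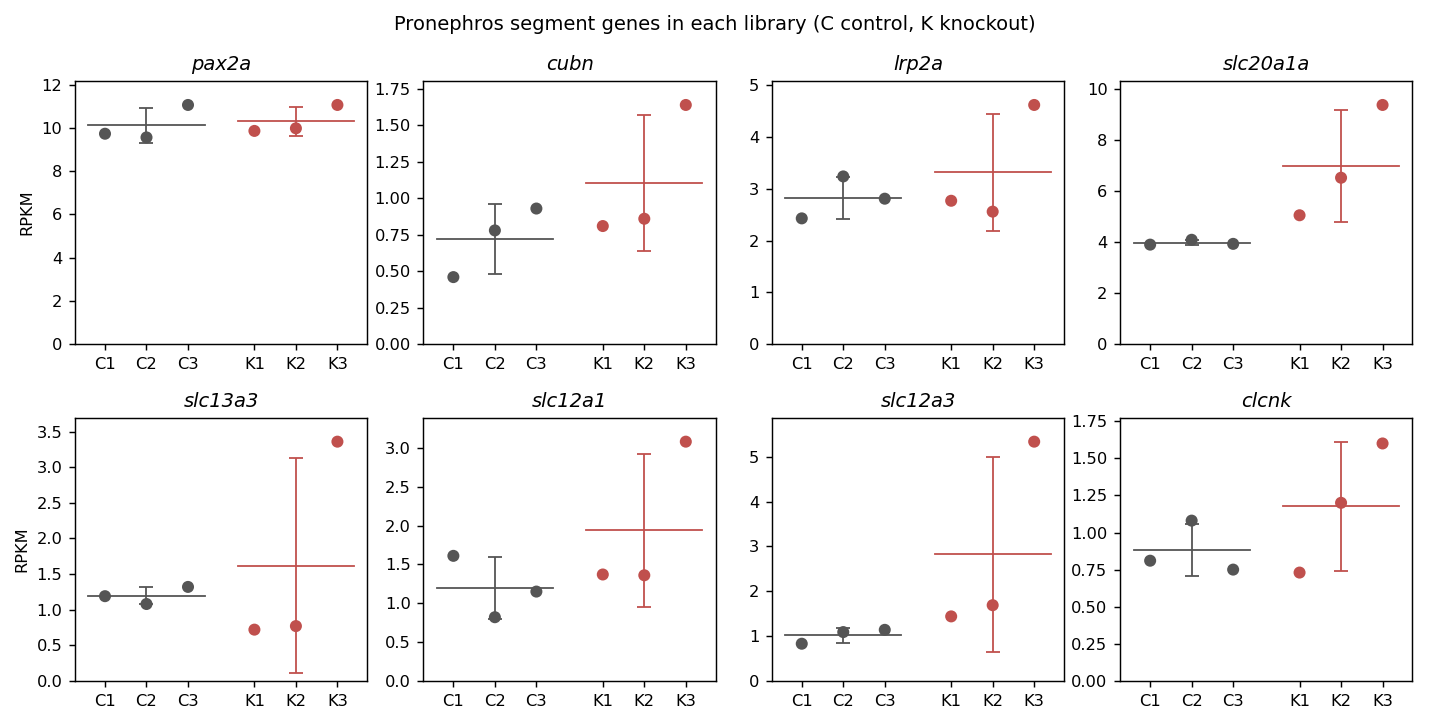
RPKM of the 8 pronephros segment genes in each library, with controls in grey, knockouts in red, lines at group means and bars of 1 SD (n = 3). Knockout 3 is the highest point for every gene but pax2a, where it equals control 3 at 11.06 RPKM, and for slc20a1a and slc12a3 all 3 knockouts lie above all 3 controls.

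In controls pax2a had the highest level of the 8 genes, followed by slc20a1a and lrp2a, and none of these 3 overlapped with its neighbours in the order. The remaining 5 genes lay between 0.46 and 1.61 RPKM. Their control means were 1.20 RPKM for slc13a3, 1.19 for slc12a1, 1.02 for slc12a3, 0.880 for clcnk and 0.723 for cubn, and each neighbouring pair in this order overlapped. Across the 6 libraries pax2a ranked first in 6 and slc20a1a second in 6. The third place was held by lrp2a in 5 libraries and by slc12a3 in 1, knockout 3.

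The early factor gene pax2a (ENSDARG00000028148) stood at 9.73, 9.56 and 11.06 RPKM across controls 1 to 3 and at 9.86, 9.98 and 11.06 RPKM across knockouts 1 to 3. The ranges of the groups nearly coincided, and knockout 3, the highest library for the other 7 genes, was level with control 3. Its log2 fold change was 0.063 with a 95% interval of -0.27 to 0.39, a fold of 0.831 to 1.31 (edgeR adjusted p = 0.948). The exact permutation test, two-sided and over all 20 ways to assign the libraries, gave p = 0.6. Within each library pax2a made up 40.0% to 47.9% of the summed RPKM of the 8 genes in controls 1 to 3 and knockouts 1 and 2, and 27.6% in knockout 3.

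Endocytic receptors of the proximal tubule came next in the order of the nephron. Cubilin and megalin, the products of cubn and lrp2a, are large receptors that together recover filtered proteins, and megalin is also present on brain, eye and ear epithelia. The gene cubn (ENSDARG00000087013) stood at 0.46, 0.78 and 0.93 RPKM across controls 1 to 3 and at 0.81, 0.86 and 1.64 RPKM across knockouts 1 to 3. Only knockout 3 was above the control range, with knockouts 1 and 2 inside it. The log2 fold change was 0.65 ± 0.35 (SE), with a 95% interval of -0.13 to 1.43 (edgeR adjusted p = 0.741), and 0.26 ± 0.28 without knockout 3.

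The megalin gene lrp2a (ENSDARG00000102506) stood at 2.43, 3.24 and 2.81 RPKM across controls 1 to 3 and at 2.77, 2.56 and 4.62 RPKM across knockouts 1 to 3. Knockouts 1 and 2 again lay within the control range, with knockout 3 above it. Its log2 fold change was 0.27 ± 0.23 (SE), with a 95% interval of -0.25 to 0.79 (edgeR adjusted p = 0.823), and turned to -0.041 ± 0.14 without knockout 3. The exact permutation p was 0.4 for cubn and 0.7 for lrp2a. In the RefSeq annotation of assembly GRCz12tu, which is not the build named for these counts, lrp2a overlaps rdh1 and a long noncoding RNA gene, and slc13a3 a further noncoding RNA gene, so reads of overlapping parts cannot be told apart without strand.

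The proximal solute carrier genes slc20a1a and slc13a3 parted only in knockouts 1 and 2, the near match, and both were highest in knockout 3. The gene slc20a1a (ENSDARG00000020114) encodes a sodium-phosphate cotransporter and is a marker of the proximal convoluted segment in zebrafish. It stood at 3.90, 4.09 and 3.93 RPKM across controls 1 to 3 and at 5.05, 6.52 and 9.37 RPKM across knockouts 1 to 3. The controls were close together and every knockout lay above them. The control mean was 3.97 ± 0.102 RPKM and the knockout mean 6.98 ± 2.20 RPKM (SD, n = 3 each). Counting error alone (exact Poisson 95% interval) placed knockout 1, the nearest knockout, between 4.50 and 5.65 RPKM, and control 2, the highest control, between 3.64 and 4.58 RPKM, so that these intervals overlapped. The log2 fold change was 0.85 ± 0.23 (SE), 1.80-fold, with a 95% interval of 1.27- to 2.56-fold. It ranked 261 of 20555 by p (edgeR unadjusted p = 0.0042, adjusted p = 0.330), and DESeq2 gave an adjusted p of 0.0685. The exact permutation test gave p = 0.1, the smallest p that 3 against 3 allows. Without knockout 3 the log2 fold change was 0.58 ± 0.16 (edgeR adjusted p = 0.167).

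The dicarboxylate transporter gene slc13a3 (ENSDARG00000069478), whose product takes up succinate and related acids with sodium, stood at 1.19, 1.08 and 1.32 RPKM across controls 1 to 3 and at 0.72, 0.77 and 3.36 RPKM across knockouts 1 to 3. Knockouts 1 and 2 lay below all controls and knockout 3 above all of them. The log2 fold change over all libraries was 0.47 ± 0.56 (SE), with a 95% interval of -0.81 to 1.75 (edgeR adjusted p = 0.872, exact permutation p = 1). Without knockout 3 it reversed to -0.63 ± 0.27 (edgeR unadjusted p = 0.0391, adjusted p = 0.386). Knockouts 1 and 2 had 39 and 43 reads of this gene, with exact Poisson 95% intervals of 0.512 to 0.984 and 0.557 to 1.04 RPKM, both of which overlap that of control 2, 0.842 to 1.36 RPKM.

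Salt transporters of the distal tubule followed. The gene slc12a1 (ENSDARG00000098096) encodes the sodium-potassium-chloride cotransporter of the early distal segment, the counterpart of the thick ascending limb. It stood at 1.61, 0.82 and 1.15 RPKM across controls 1 to 3 and at 1.37, 1.36 and 3.08 RPKM across knockouts 1 to 3. Knockouts 1 and 2 lay within the control range and knockout 3 above it. For slc12a1 the log2 fold change was 0.73 ± 0.41 (SE), with a 95% interval of -0.20 to 1.66 (edgeR adjusted p = 0.756, exact permutation p = 0.3), and 0.23 ± 0.34 without knockout 3.

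The gene slc12a3 (ENSDARG00000013855) encodes the thiazide-sensitive sodium-chloride cotransporter, a marker of the late distal segment in zebrafish. It stood at 0.83, 1.09 and 1.14 RPKM across controls 1 to 3 and at 1.44, 1.69 and 5.34 RPKM across knockouts 1 to 3. All knockouts lay above all controls, knockouts 1 and 2 by less and knockout 3 by 3.14-fold over the next library in normalized reads. The control mean was 1.02 ± 0.166 RPKM and the knockout mean 2.82 ± 2.18 RPKM (SD, n = 3 each). The exact Poisson 95% intervals of knockout 1, 1.15 to 1.77 RPKM, and control 3, 0.866 to 1.47 RPKM, overlapped. For slc12a3 the log2 fold change was 1.51 ± 0.49 (SE), 2.84-fold, with a 95% interval of 1.32- to 6.12-fold (edgeR unadjusted p = 0.0135, adjusted p = 0.504). DESeq2 gave an adjusted p of 0.0770, and the exact permutation p was 0.1, again the smallest the design allows. Without knockout 3 the log2 fold change was 0.66 ± 0.24 (edgeR adjusted p = 0.318).

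The chloride channel gene clcnk (ENSDARG00000022560), whose product lets chloride leave distal tubule cells toward the blood, stood at 0.81, 1.08 and 0.75 RPKM across controls 1 to 3 and at 0.73, 1.2 and 1.6 RPKM across knockouts 1 to 3. The groups overlapped, and knockout 1 was the lowest of all libraries. With 23 to 58 reads per library, it had the fewest reads of the 8 genes. The exact Poisson 95% interval of knockout 3, 1.21 to 2.07 RPKM, overlapped that of control 2, 0.796 to 1.43 RPKM. For clcnk the log2 fold change was 0.46 ± 0.36 (SE), with a 95% interval of -0.35 to 1.26 (edgeR adjusted p = 0.804, exact permutation p = 0.4), and 0.17 ± 0.35 without knockout 3.

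**Figure D2:**
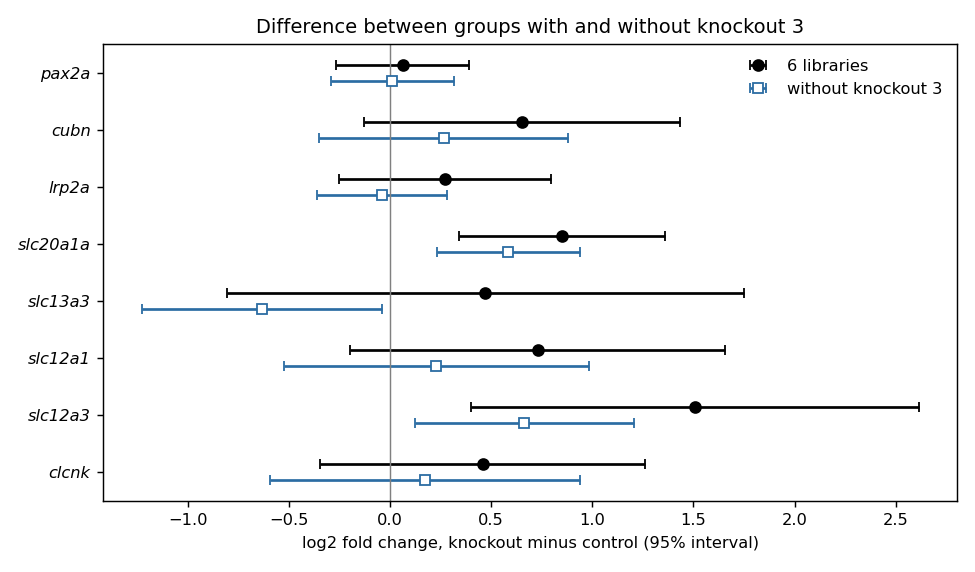
Log2 fold change, knockout minus control, of the 8 genes with 95% intervals from edgeR's fit, over 6 libraries (filled circles) and without knockout 3 (open squares). The intervals of slc20a1a and slc12a3 lie above 0 in both fits before adjustment over all genes, and slc13a3 moves from 0.47 to -0.63. The fit without knockout 3 has only knockouts 1 and 2, which nearly match, so its intervals may be too narrow.

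Within a library the balance between segment genes also varied. The ratio of slc12a3 to slc12a1, late over early distal, in RPKM was 0.516, 1.33 and 0.991 across controls 1 to 3 and 1.05, 1.24 and 1.73 across knockouts 1 to 3. The groups overlapped. The ratio of lrp2a to cubn was 5.28, 4.15 and 3.02 across controls 1 to 3 and 3.42, 2.98 and 2.82 across knockouts 1 to 3, and again overlapped. These pairs were chosen as partners of a segment order or a receptor complex, with the values of the genes already seen.

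The genes whose profile over the 6 libraries was nearest to a segment gene were found by the root mean square difference of log2 CPM (reads scaled to library depth), each gene centred on its own mean, among 15267 genes (15268 for cubn) with a proper symbol and at least 1 RPKM on average. The nearest to slc12a3 was atp1a1a.4, a sodium pump subunit gene of the distal list below, at a difference of 0.19 on the log2 scale, followed by fosaa at 0.20. The nearest to slc20a1a were egln1a and nuak1a, both at 0.12. For slc13a3 they were calb2a at 0.088 and cdk5r2a at 0.093, which also had their lowest levels in knockouts 1 and 2 and their highest in knockout 3. For pax2a they were arfgap2 at 0.019 and cyp2p6 at 0.025, and for lrp2a prdm8b at 0.043 and cdh2 at 0.046. For cubn they were cxcl8b.1 at 0.10 and gdf10b at 0.13, for slc12a1 ugt2a4 at 0.11 and hsp90aa1.2 at 0.12, and for clcnk flt1 at 0.12 and zhx2b at 0.13. These profiles have 6 points, which share their libraries, and are given as a description.

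Further pronephros genes were read from 5 lists, of podocytes, transcription factors, proximal tubule, distal tubule and duct, and multiciliated cells. Of 97 symbols, 86 rows were tested and none was called by edgeR, the smallest adjusted p being 0.225, while DESeq2 called 6, against 1.14% of all genes it tested. In normalized reads (TMM), every knockout lay above every control in 22 rows and below in 7, 25.6% and 8.14%, against 7.62% and 7.44% of all genes tested. Of the 86, 62 had a log2 fold change above 0, and the median was 0.19. At an unadjusted edgeR p under 0.05, 18 were higher and 2 lower, against 4.06% and 3.41% of all genes tested. The lists were chosen with earlier results of these data known, and some of their genes are also expressed outside the kidney. Their shares, here and below, are therefore a description and no independent comparison with all genes.

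Proximal transport and brush border genes had the highest list median of the pronephros lists, 0.72, with 20 of 23 tested members above 0 and none called by edgeR. Knockout 3 was the highest library in 17 of the 23, and without it 16 were above 0 and the median was 0.23. The smallest p was that of ggt1b, for a gamma-glutamyltransferase of glutathione breakdown. It stood at 0.40, 0.42 and 0.68 RPKM across controls 1 to 3 and at 1.32, 1.16 and 2.50 RPKM across knockouts 1 to 3, so that all knockouts lay above all controls. Its log2 fold change was 1.78 ± 0.40 (SE, edgeR adjusted p = 0.225, DESeq2 adjusted p = 0.0142) and 1.37 ± 0.35 without knockout 3. The phosphate cotransporter gene slc34a1a, of another family than slc20a1a, stood at 0.29, 0.54 and 0.39 RPKM in controls and at 1.05, 0.87 and 2.68 RPKM across knockouts 1 to 3. Here too the groups did not overlap, with a log2 fold change of 1.93 ± 0.49 (SE, edgeR adjusted p = 0.298, DESeq2 adjusted p = 0.0260), and 1.27 ± 0.38 without knockout 3. The gene pdzk1, for a scaffold protein that holds transporters at the brush border, stood at 1.73, 1.11 and 2.29 RPKM in controls and at 2.81, 3.42 and 7.06 RPKM across knockouts 1 to 3, with a log2 fold change of 1.41 ± 0.40 (SE, edgeR adjusted p = 0.387, DESeq2 adjusted p = 0.0490), and 0.92 ± 0.30 without knockout 3.

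Of the 23 tested proximal genes, every knockout lay above every control in 6, among them ggt1b, slc34a1a and pdzk1, and below in 1. Over all genes tested these shares were 7.62% and 7.44%. At an unadjusted edgeR p under 0.05, 7 were higher and 1 lower, against 4.06% and 3.41% of all genes tested. The proximal genes that follow did not have all knockouts above all controls. The close paralog slc20a1b, far more abundant than slc20a1a, stood at 44.8, 45.1 and 55.2 RPKM in controls and at 53.7, 54.8 and 70.8 RPKM across knockouts 1 to 3. Its groups overlapped, with a log2 fold change of 0.34 ± 0.18 (SE, edgeR adjusted p = 0.733), and 0.20 ± 0.14 without knockout 3. The ion channel gene trpm7, used as a marker of the proximal straight segment but expressed widely, stood at 17.1, 17.8 and 12.9 RPKM in controls and at 12.79, 11.53 and 11.95 RPKM across knockouts 1 to 3. All knockouts lay below all controls, by a narrow margin, and the log2 fold change was -0.35 ± 0.16 (SE, edgeR adjusted p = 0.667). The partners of the cubilin-megalin complex, named after their values were seen, were the anchor gene amn, with a log2 fold change of 0.44 ± 0.43 (0.24 ± 0.47 without knockout 3), and the adaptor gene dab2, with 0.25 ± 0.15, both with overlapping groups.

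Distal and duct genes had a list median of 0.14, with 13 of 22 tested members above 0 and none called by edgeR, and 0.12 without knockout 3. Every knockout lay above every control in 6 of the 22 and below in 2, against 7.62% and 7.44% of all genes tested. The 2 lower genes, wnk4b and cnnm2b, were named after their values were seen. Their log2 fold changes were -0.28 ± 0.19 and -0.44 ± 0.23, and -0.34 ± 0.18 and -0.32 ± 0.21 without knockout 3. The gene cdh17, for a cadherin found along the whole pronephric tubule, stood at 12.7, 8.73 and 14.2 RPKM across controls 1 to 3 and at 18.8, 19.7 and 27.5 RPKM across knockouts 1 to 3. Every knockout was above every control, and the log2 fold change was 0.92 ± 0.23 (SE, edgeR adjusted p = 0.289, DESeq2 adjusted p = 0.0245). It was 0.73 ± 0.20 without knockout 3. The sodium pump subunit genes atp1a1a.5 and atp1a1a.4, neighbouring copies that may share reads, had log2 fold changes of 1.04 ± 0.27 and 1.29 ± 0.39 (SE, edgeR adjusted p = 0.326 and 0.462). For atp1a1a.4 the controls stood at 6.73, 6.56 and 8.81 RPKM and knockouts 1, 2 and 3 at 11.4, 11.4 and 30.2 RPKM, without overlap. Without knockout 3 the log2 fold change was 0.67 ± 0.16 for atp1a1a.4 and 1.02 ± 0.28 for atp1a1a.5. The beta subunit gene atp1b1a, the most abundant of the list, stood at 52.2, 48.9 and 53.0 RPKM in controls and at 58.8, 62.3 and 95.2 RPKM across knockouts 1 to 3 (log2 fold change 0.53 ± 0.20, edgeR adjusted p = 0.608), with 0.28 ± 0.12 in the fit without knockout 3. The kinase gene wnk1a, a regulator of the Slc12 cotransporters, had a log2 fold change of -0.21 ± 0.15 (edgeR adjusted p = 0.788). The gene bsnd, for barttin, the partner subunit of the Clcnk channel, was named after its values were seen and had a log2 fold change of -0.00157 ± 0.67. With only 6 to 15 reads per library, its 95% interval was wide, -1.51 to 1.51. The uromodulin gene umod, also named after its values were seen, had no read in any library.

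Transcription factor genes of the pronephros had a list median of 0.11, with 16 of 22 tested rows above 0 and none called by edgeR, and 0.16 without knockout 3. Every knockout lay above every control in 7 of the 22 and below in 1, against 7.62% and 7.44% of all genes tested. The hepatocyte nuclear factor 1 beta genes, which act in tubule segmentation, both lay above the controls in every knockout. For hnf1ba the controls stood at 4.16, 3.56 and 4.04 RPKM and knockouts 1, 2 and 3 at 4.65, 4.58 and 8.94 RPKM, with a log2 fold change of 0.66 ± 0.27 (SE, edgeR adjusted p = 0.626), and 0.28 ± 0.15 without knockout 3. For hnf1bb they stood at 1.16, 1.07 and 1.4 RPKM and at 1.80, 1.5 and 2.56 RPKM, with 0.73 ± 0.27 (SE, edgeR adjusted p = 0.598), and 0.50 ± 0.24 without knockout 3. The factor gene tbx2b stood at 26.7, 20.5 and 22.3 RPKM in controls and at 31.0, 30.9 and 31.1 RPKM across knockouts 1 to 3. In this gene the knockout libraries were level with each other, and the log2 fold change was 0.46 ± 0.15 (SE, edgeR adjusted p = 0.50) and as large without knockout 3, 0.46 ± 0.14. The early kidney factor gene lhx1a had 0.39 ± 0.17 (edgeR adjusted p = 0.660), and tfap2a, which also acts in neural crest and skin, 0.0086 ± 0.16 (edgeR adjusted p = 0.959), which became -0.15 without knockout 3. The related gene pax8, named after its values were seen, was at 6.74 to 9.89 RPKM in controls and 7.06 to 10.09 RPKM in knockouts.

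Podocyte genes had a list median of 0.13 over 11 members, 9 of them above 0, and -0.020 without knockout 3. None was called by edgeR. The slit diaphragm gene nphs1, which marks podocytes and was named after its values were seen, was detected in every library, at 0.96 to 1.59 RPKM. The podocalyxin gene podxl stood between 16.2 and 20.5 RPKM in all libraries, and its log2 fold change was 0.012 ± 0.15 (edgeR adjusted p = 0.990), and -0.097 without knockout 3. The genes with the smallest p were kirrela, at -0.27 ± 0.15, cd2ap, at 0.27 ± 0.15, and mafba, at 0.38 ± 0.23, with edgeR adjusted p between 0.741 and 0.763. Of these mafba stood at 11.06, 11.15 and 11.86 RPKM in controls and at 11.58, 11.23 and 20.32 RPKM across knockouts 1 to 3. Only its knockout 3 level was outside the control range, and its log2 fold change without that library was 0.047 ± 0.13. The mesenchyme factor gene foxc1a had 0.21 ± 0.14. Multiciliated cell genes had a median of -0.091 over 8 members, 4 of them above 0, and -0.041 without knockout 3. Among them foxj1a, the master factor gene of motile cilia, stood at 9.17 RPKM in knockout 3 and 1.19 to 1.99 RPKM in the other libraries. The genes rfx2, cetn2 and cetn4 had log2 fold changes of 0.43 ± 0.19, -0.47 ± 0.19 and -0.28 ± 0.22, and without knockout 3 they had 0.22, -0.49 and -0.096.

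**Figure D3:**
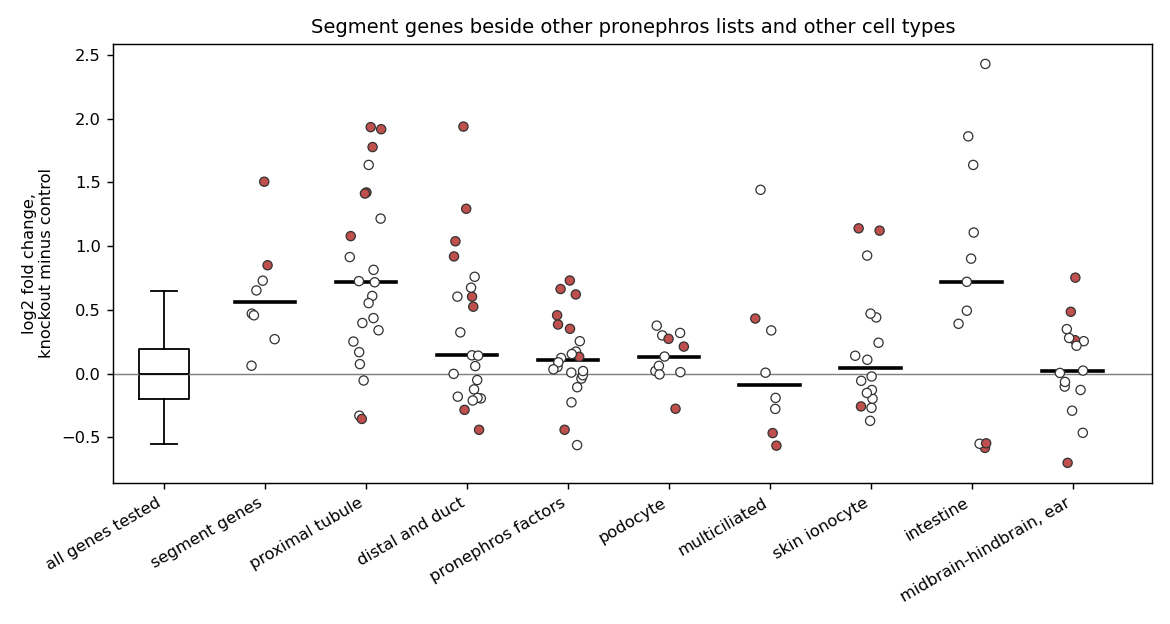
Log2 fold change, knockout minus control, of each tested gene (point) in the 8 segment genes, 5 further pronephros lists and 3 lists of other cell types, with list medians as bars. Red points are genes whose groups do not overlap, and the box shows the middle 50% of all genes tested with whiskers from the 5th to the 95th percentile, -0.55 to 0.65. No gene shown was called by edgeR, and the segment, proximal tubule and intestine lists have medians of 0.56, 0.72 and 0.72.

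Markers of other cells that use the same genes were read beside these results. The lists share slc5a1 between proximal tubule and intestine and pax2b between transcription factors and the midbrain-hindbrain list. Intestinal epithelium, which also makes cubilin and several proximal transporters, had 8 of 11 tested markers above 0 with a median of 0.72, and 3 of 11 and -0.14 without knockout 3. Relative to the control mean, its median was -0.17 and -0.10 in knockouts 1 and 2 and 1.45 in knockout 3 on the log2 scale, while that of the 8 segment genes was 0.14, 0.31 and 1.26. The peptidase gene anpepb stood at 5.09 RPKM in knockout 3 and 0.29 to 0.48 RPKM elsewhere, with a log2 fold change of 2.43 ± 1.08, and 0.043 ± 0.44 without knockout 3. The abundant lipid carrier genes fabp2 and apoa4b.1 went the other way, with every knockout below every control. For fabp2 the controls stood at 138, 109 and 118 RPKM and knockouts 1, 2 and 3 at 89.1, 92.5 and 55.4 RPKM. For apoa4b.1 the controls stood at 748, 953 and 655 RPKM and knockouts 1, 2 and 3 at 607, 619 and 339 RPKM. Because of these genes the summed level of the list was 458 RPKM in knockout 3. It was 735 and 754 RPKM in knockouts 1 and 2 and 809 to 1106 RPKM in controls. The sum thus reads mostly fabp2 and apoa4b.1, and which cells made their RNA cannot be told from whole embryos. Of the 11 tested markers, 0 had every knockout above every control and 2 below, against 7.62% and 7.44% of all genes tested. Every intestinal marker matched was above 0 RPKM in every library. The part of intestinal cells in the levels of the segment genes was not tested.

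Skin ionocytes, which take up salt from the water with transporters akin to those of the distal tubule, had 8 of 16 tested markers above 0 and a median of 0.044, and 4 of 16 and -0.16 without knockout 3. Their median relative to controls was -0.20 and -0.14 in knockouts 1 and 2 and 0.62 in knockout 3, and their summed level was 150 and 154, then 214 RPKM, against 172 to 175 RPKM in controls. The higher sum in knockout 3 came mainly from the proton pump subunit gene atp6v1aa, at 77.9 RPKM there and 34.8 to 37.8 RPKM elsewhere. The carbonic anhydrase gene ca2 lay below the controls in all knockouts, with a log2 fold change of -0.26 ± 0.14 (edgeR adjusted p = 0.744). The exchanger gene slc9a3.2 and the cotransporter gene slc12a10.3, a relative of slc12a3, had 1.14 ± 0.38 and 1.12 ± 0.35 (edgeR adjusted p = 0.520 and 0.462), with groups apart. The ionocyte marker slc12a10.2, named after its values were seen, stood at 2.90, 3.32 and 3.85 RPKM in controls and at 1.70, 1.75 and 5.55 RPKM across knockouts 1 to 3. As for slc13a3, knockouts 1 and 2 lay below all controls and knockout 3 above them. It was the 1 listed gene called by edgeR without knockout 3, at a log2 fold change of -0.92 ± 0.18 (edgeR adjusted p = 0.0454). In that fit 0.196% of all genes tested were called lower. The knockouts of that fit were 1 and 2, the near match described above, so the spread between knockouts may be understated. Of the 16 tested ionocyte markers, 2 had every knockout above every control and 1 below, against 7.62% and 7.44% of all genes tested. The part of ionocytes in the levels of slc12a3 and clcnk was not tested.

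Midbrain-hindbrain boundary, ear and optic stalk markers, from the other places that use pax2a, had 9 of 15 tested members above 0 and a median of 0.024, and 10 of 15 and 0.18 without knockout 3. Relative to the control mean, their median was 0.27, 0.19 and -0.16 across knockouts 1 to 3 on the log2 scale. Their summed level was 92.5 to 115 RPKM in controls and 105 to 116 RPKM in knockouts, and overlapped. Much of this sum came from the otolith genes stm and otomp, at 44.88 and 22.5 RPKM in knockout 3. The boundary genes eng1a, eng1b, eng2b and wnt1, named after their values were seen, were lowest in knockout 3. They stood there at 0.9, 9.1, 5.27 and 1.45 RPKM. For pax2b, pax5 and eng2a knockout 3 was not the lowest library. The signal gene fgf8a, which acts at the boundary, lay below the controls in all knockouts, at 2.89, 2.55 and 1.91 against 1.69, 1.39 and 1.32 RPKM (log2 fold change -0.70 ± 0.26, edgeR adjusted p = 0.593). The optic stalk factor gene vax1 and the otolith protein gene oc90 had log2 fold changes of 0.49 ± 0.22 and 0.75 ± 0.35, with every knockout above every control. The otolith genes stm and otomp, the most abundant of the list, had 0.35 ± 0.17 and 0.26 ± 0.14, with groups overlapping for stm and apart for otomp. Of the 15 tested members, 3 had every knockout above every control and 1 below, against 7.62% and 7.44% of all genes tested.

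**Figure D4:**
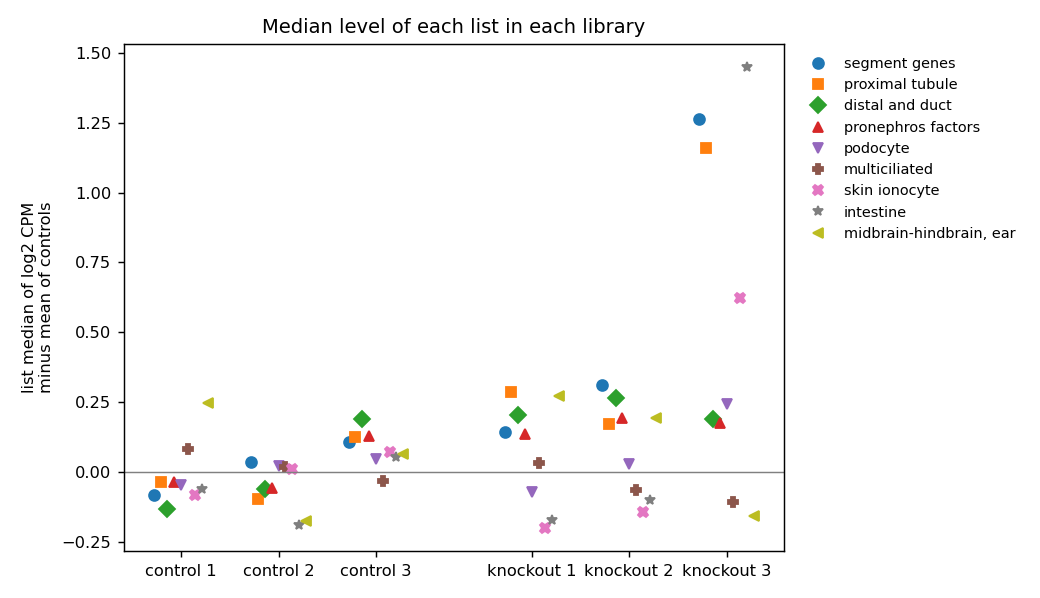
Median over tested members of log2 CPM after subtracting each gene's control mean, for each list in each of the 6 libraries. In knockout 3 the segment genes (1.26), proximal tubule (1.16) and intestine (1.45) lists lie well above the other lists. In knockouts 1 and 2 the segment genes stand at 0.14 and 0.31 and the proximal tubule list at 0.28 and 0.17. Distal and duct genes stand there at 0.20 and 0.26, pronephros factors at 0.13 and 0.19, and midbrain-hindbrain and ear markers at 0.27 and 0.19. The podocyte, multiciliated, ionocyte and intestine lists are below 0 in knockout 1 or 2.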

How the data were processed

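Per the submitters' processing notes, Trimmomatic 0.30, HISAT2 2.0.1, HTSeq 0.6.1, DESeq and build Zv9 were used, with no order or settings given. The sources used here do not give the strand setting for counting. Libraries were made with the NEBNext Ultra RNA kit, per the labels' protocols. The authors deposited whole-number read counts per gene and library. The authors also deposited RPKM values, which can be recomputed from the counts, the exonic lengths and the library totals within 0.005. Another 6 per-library columns match none of the samples and were left aside.

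Counts were filtered with filterByExpr, scaled by TMM and tested with edgeR 4.0.16 (robust quasi-likelihood, R 4.3.3, no covariate, Benjamini-Hochberg over 20555 genes, called under 0.05). The procedure was also run on simulated counts of independent libraries. These had neither an outlying library nor a near match, so they do not cover those features of the data. Standard errors and intervals were derived from the F statistic. Exact permutation tests used mean log2 RPKM. Log2 CPM had a prior count of 2. Counts of genes with groups apart, and of genes highest in a library, used reads normalized by TMM, in which a few genes differ from their order in RPKM. Poisson intervals (95%) cover counting error only. DESeq2 1.42.0 was an alternative, as were other filters, scalings, a replicate block, a length offset, summed knockouts 1 and 2, and each library left out.

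Members and lists were chosen with earlier results of these data known. Named from each list were called genes, the 3 with the smallest p and the 2 with the highest control mean, besides genes said to be named after their values were seen. Gene IDs and symbols are those of the deposited table.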

Additional observations from a re-analysis of the deposited data

How the results depend on the processing

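No segment gene was called under any of the 13 alternatives, and 97 of 99 log2 fold changes kept their direction and their side of the threshold. Adjusted p over the alternatives was 0.0685 to 0.976 for slc20a1a and 0.0770 to 0.976 for slc12a3. Without knockout 3, lrp2a reversed to -0.041 and slc13a3 to -0.63; over all libraries left out in turn their log2 fold changes ranged up to 0.42 and 0.82. At a mean of at least 2 RPKM only pax2a, lrp2a and slc20a1a were tested. Leaving out 1 library at a time, called genes ranged from 0 to 165 higher and 0 to 41 lower over all genes, beside 21 and 3 with all libraries. The 165 and 41 were called without knockout 3, where the knockout group was only the near match of knockouts 1 and 2. Without control 2, with no gene called by edgeR, 956 of 20760 genes tested had an unadjusted p under 0.05. With all libraries 1535 of 20555 did. No filter gave 47 higher and 6 lower, DESeq2 188 and 46, and knockouts 1 and 2 summed 16 and 0. The summed fit had 1194 of 21230 genes tested at an unadjusted edgeR p under 0.05. Among the further pronephros genes DESeq2 called 6, slc34a1a, pdzk1, ggt1b, cdh17, stc1l and atp1a1a.4, and edgeR 0 in every setting. The cause of these differences was not tested. Same-numbered libraries did not deviate together (correlations -0.000145, -0.0587 and -0.0348), and no library correlated best with its own number. With the replicate block 17 genes were called higher and 1 lower, and the log2 fold change was 0.80 for slc20a1a, 1.26 for slc12a3 and 0.11 for slc13a3. Depth limits clcnk, slc12a1 and slc13a3 most, with fewer than 80 reads in most libraries.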

Other observations

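The corpuscles of Stannius, small endocrine glands that bud from the distal pronephros in fish and release the calcium-lowering hormone stanniocalcin, were marked by stc1l, which was named after its values were seen. It stood at 2.86, 2.12 and 3.50 RPKM across controls 1 to 3 and at 4.71, 5.32 and 21.6 RPKM across knockouts 1 to 3. All knockouts lay above all controls, with a log2 fold change of 1.94 ± 0.60 (SE, edgeR adjusted p = 0.489, DESeq2 adjusted p = 0.0174), and 0.88 ± 0.27 without knockout 3 (edgeR adjusted p = 0.219).

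The potassium channel genes kcnj1a.1 to kcnj1a.6, neighbouring copies that may share reads, were named after their values were seen. Knockout 3 was the highest library for kcnj1a.1, at 0.86 RPKM against 0.65 and 0.69 RPKM in knockouts 1 and 2 and 0.33 to 0.59 RPKM in controls, so that its groups did not overlap (log2 fold change 0.60 ± 0.38, edgeR adjusted p = 0.768). For the other members, kcnj1a.2 to kcnj1a.6, another library was the highest and the groups overlapped. For kcnj1a.6 the controls stood at 1.94, 2.00 and 2.43 RPKM and knockouts 1, 2 and 3 at 3.75, 4.30 and 2.43 RPKM (log2 fold change 0.76 ± 0.28, edgeR adjusted p = 0.580), and without knockout 3 it had 0.97 ± 0.22 (edgeR adjusted p = 0.0914).

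Within a library the ratio of slc20a1a to slc13a3, proximal genes that went apart in knockouts 1 and 2, was 3.28, 3.79 and 2.98 across controls 1 to 3 and 7.01, 8.47 and 2.79 across knockouts 1 to 3. Knockouts 1 and 2 lay above all controls and knockout 3 below them. This ratio was chosen after the values were seen.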
